A study of Mus musculus with 12 samples.

Results

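The proteins that build the cytosolic ribosome were followed at the level of their mRNA in RAW264.7, a cultured line of mouse macrophages. The genes were taken by symbol: every protein-coding gene named Rpl or Rps with a number, together with Rpsa, Rplp0, Rplp1 and Rplp2. Of 102 such symbols, 10 S6 kinases and 6 with a pseudogene name were left out, and Rpl10l and Rpl39l, with 1 and 4 counts in all, did not reach the minimum of 20 counts over the 12 libraries. This left 84 genes of the 54232 in the count table. Of these, 43 encode proteins of the large subunit, 3 the P-stalk of the large subunit (Rplp0, Rplp1, Rplp2) and 31 the small subunit, and these 77 are called core genes below. Another 6 are paralogs of a core gene (Rpl3l, Rpl7l1, Rpl22l1, Rpl36al, Rps27l, Rps27rt). The last, Rps19bp1, is taken in by its symbol but encodes a protein that binds Rps19 and is not part of the ribosome. Fau and Rack1 also encode ribosomal proteins, are not reached by the symbol rule and are given beside the 84.

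The ribosome reads mRNA on its small subunit and joins amino acids on its large subunit, and each core protein is needed in 1 copy per particle, apart from the stalk proteins. The mRNAs of these genes are abundant and stable, and many begin with a C followed by a run of pyrimidines, the terminal oligopyrimidine (TOP) motif, through which mTORC1 controls their translation. Myc is known to raise the transcription of ribosomal protein genes and of the factors that assemble ribosomes. In macrophages, bacterial lipopolysaccharide (LPS) is known to activate mTORC1 and to induce Myc.

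The 12 libraries fall into 6 groups of 2: Ing4-/- cells given 100 ng/ml LPS for 3 h, untreated Ing4-/- cells, Socs1-/- cells given the same LPS treatment, untreated Socs1-/- cells, LPS-treated wild-type cells and untreated wild-type cells. All groups are RAW264.7 cells. Ing4 is known as a reader of histone methylation and Socs1 as an inhibitor of JAK kinases. The labels do not say how the knockouts were made, whether a knockout line is 1 clone, or whether same-group libraries are separate cultures, so p-values measure the spread between these samples, which may be technical.

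Each library held between 17250815 and 24377950 counts. The 10 macrophage markers examined summed to between 11826 and 22254 CPM (CPM is the usual count per library total, here adjusted between libraries with edgeR's TMM method), while those of T, B and NK cells reached at most 0.348 CPM, those of neutrophils and early myeloid cells 0.698 to 3.23 CPM and those of fibroblasts, epithelium and erythroid cells at most 0.169 CPM. Ing4 itself was hardly counted: 6 and 10 counts in LPS-treated and 6 and 29 in untreated Ing4-/- libraries, against 6 and 2 in LPS-treated and 10 and 5 in untreated wild-type libraries, so its level does not check the label. Socs1 had 67 and 127 counts (2.73 and 7.14 CPM) in LPS-treated Socs1-/- libraries, against 169 and 179 (both 9.08 CPM) in LPS-treated wild-type libraries. The 67 counts belong to the first LPS-treated Socs1-/- library, which stood apart as described below. Untreated, Socs1 had 7 and 7 counts in Socs1-/- and 4 and 11 in wild-type libraries, so its level is no firm check of the label either. There were 3 libraries that stood apart. The first LPS-treated Socs1-/- library lay at −16.2 on the first principal component of all tested genes, where the other LPS libraries lay between 62.4 and 74.4 and the untreated ones between −66.1 and −41.7. The second LPS-treated and the second untreated Ing4-/- library held 2.09% and 2.11% of their counts in mitochondrially encoded transcripts, against 0.548% to 1.08% in the other libraries.

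The start of the transcript, where the TOP motif sits, was read from RefSeq promoter windows on GRCm38.p6, in which 64 of the 84 genes had an entry. A run of at least 5 pyrimidines (C or T) beginning with C exactly at the annotated start, read on the gene's own strand, was found in 14 of the 64 genes. That is 18.4% of their 76 windows, against 2.51% of all 32851 windows. The following windows are shown because they carry this feature or belong to genes on which the results turn. Each gives 10 bases before the annotated start and the first 20 bases of the transcript, with the pyrimidine run in capitals where the rule found one.
Rpl15: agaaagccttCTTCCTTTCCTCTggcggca
Rpl35: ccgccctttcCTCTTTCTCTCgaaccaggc
Rps10: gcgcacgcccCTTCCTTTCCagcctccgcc
Rps6: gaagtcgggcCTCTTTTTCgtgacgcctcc
Rps18: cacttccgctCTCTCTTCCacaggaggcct
Rpl28: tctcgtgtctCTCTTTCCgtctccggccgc
Rplp2: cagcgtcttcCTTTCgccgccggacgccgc
Rps27: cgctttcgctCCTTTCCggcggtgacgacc
Rps27rt: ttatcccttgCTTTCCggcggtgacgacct
Rps7: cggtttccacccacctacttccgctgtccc
Rps28: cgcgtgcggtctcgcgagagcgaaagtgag
Rpl22l1: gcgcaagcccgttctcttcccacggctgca
Rpl7l1: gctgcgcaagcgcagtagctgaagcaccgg

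The longest run among these, of 13 bases, stands at the start of Rpl15 (chr14:18270967-18270996, minus strand). Rps18 (chr17:33955646-33955675, minus strand) has a run of 9. Rps7 (chr12:28635934-28635963, minus strand), Rps28 (chr17:33824543-33824572, minus strand), Rpl22l1 (chr3:28805498-28805527, plus strand) and Rpl7l1 (chr17:46782637-46782666, minus strand) have none at the annotated base, which says only that these letters are not at this position. Rps27 (chr3:90213629-90213658) and Rps27rt (chr9:114982720-114982749), both on the minus strand, have much of their printed windows in common, and reads of such genes are hard to tell apart. The other windows are Rpl35 (chr2:39005112-39005141, minus strand), Rps10 (chr17:27635225-27635254, minus strand), Rps6 (chr4:86857348-86857377, minus strand), Rpl28 (chr7:4792955-4792984, plus strand) and Rplp2 (chr7:141447641-141447670, plus strand). The E-box letters CACGTG, which Myc is known to bind and which read the same on both strands, were in 10.5% of the members' promoter windows (250 bases before to 50 after the start), against 7.15% of all windows and 20.8% of those of ribosome biogenesis factors.

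Many ribosomal protein transcripts share sequence with other genes. For all 84 genes this was measured as the percentage of 75-base windows of the transcript, the length of a read, that occur in a transcript of another gene. The median was 48.5%, 39 genes were over 50%, and 4 were at 0. A further 296 rows of the table are pseudogenes with a ribosomal protein symbol. No source used here says how the authors' counting treated reads with several origins, so levels of single members carry that uncertainty.

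Levels spanned several orders of magnitude between members. On the scale of CPM per kilobase of annotated transcript, averaged over the 12 libraries, the stalk gene Rplp1 was highest at 1913, followed by Rps27 at 1394, Rpl32 at 1363, Rps15 at 1292 and Rps12 at 1286. Their order below Rplp1 rests on small gaps and was not tested. The median over the 84 genes was 584 CPM per kilobase. The 5 lowest were Rps19bp1 at 33.9, Rpl36al at 11.6, Rps27rt at 4.56, Rpl3l at 0.742 and Rpl24 at 0.482. Rpl24 is a core gene of the large subunit and yet had 80 counts over all 12 libraries. Its annotated exons overlap the gene Gm28037 on the same strand over 47.0% of their length, Gm28037 had 0 counts in every library, and 80.9% of the windows of its transcript occur elsewhere. Across the 84 genes the level did not follow the shared share: the Spearman coefficient across genes, which are not independent and share the same libraries, was −0.01, and the median was 583 CPM per kilobase in the 39 genes over 50% and 594 in the other 45.

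The ribosomal protein genes took up between 2.77% and 4.53% of all counts of a library. Their share was 3.94% and 2.77% in LPS-treated and 4.20% and 3.04% in untreated Ing4-/- libraries. It was 4.17% and 3.49% in LPS-treated and 4.26% and 3.77% in untreated Socs1-/- libraries, and 3.73% and 4.20% in LPS-treated and 4.07% and 4.53% in untreated wild-type libraries. Each LPS library thus had a lower share than the untreated library of the same genotype and number, in 6 of 6 pairs. After TMM scaling, which sets libraries against each other by their typical gene, the order turned in 6 of 6 pairs. Summed levels were then 44570 and 31747 CPM in LPS-treated against 37575 and 27923 CPM in untreated Ing4-/- libraries, 41462 and 39539 against 37665 and 32403 CPM in Socs1-/- libraries, and 41751 and 49146 against 37377 and 41439 CPM in wild-type libraries. The TMM factors were 0.854 to 1.01 in LPS libraries and 1.09 to 1.17 in untreated ones. The ratio of small-subunit to large-subunit counts, with the stalk counted in the large subunit, stayed between 0.764 and 0.795 in all 12 libraries.

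**Figure D1:**
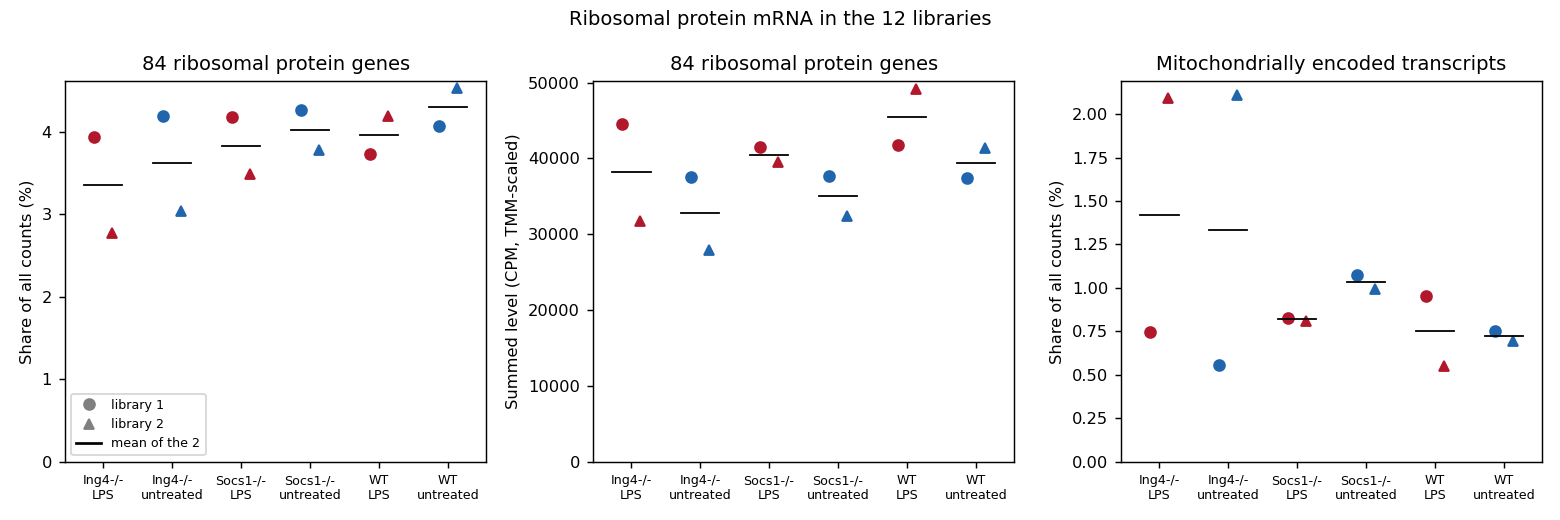
Share of all counts taken by the 84 ribosomal protein genes (left, %), their summed TMM-scaled level (middle, CPM) and the share of mitochondrially encoded transcripts (right, %) in each library; circles and triangles are the first and second library of a group and lines the mean of the 2. LPS libraries have a lower share but a higher scaled level than untreated libraries of the same number, and the second Ing4-/- libraries have the lowest ribosomal protein share and the highest mitochondrial share.

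After LPS, the ribosomal protein mRNAs stood slightly above the typical gene, nearly all of them by a similar small amount. The median log2 difference of the 84 genes between LPS-treated and untreated cells was 0.22 in Ing4-/-, 0.21 in Socs1-/- and 0.20 in wild-type cells, and 0.20 as the mean of the 3 genotypes, where all 12771 tested genes had a median of 0.00. Leaving out single libraries moved it to between −0.05 (without the first LPS-treated library) and 0.46 (without the second) in Ing4-/- cells. It then lay between 0.11 and 0.31 in Socs1-/- cells (without the second or the first untreated library) and between 0.08 and 0.31 in wild-type cells (without the second or the first LPS-treated library). All 84 genes passed the filter on low counts. In the mean of the genotypes 83 of 84 differences were positive, with a middle range (quartiles) of 0.17 to 0.25, and Rpl3l was the exception. The sign rests on the scaling: 79 were positive with upper quartile scaling and 4 with library size alone. The distance to the median of all genes was 0.20 under TMM, relative log expression, upper quartile scaling and library size alone. It was 0.14 in DESeq2's fit, where the members' median was 0.20. There the median of all genes, 0.06, ran over a wider set not filtered on low counts, so the 2 distances are not alike. Large-subunit genes had a median of 0.22, stalk genes 0.18 and small-subunit genes 0.22.

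Few single members passed the test. For each gene it takes 1 estimate of the spread from all 12 libraries, including the 3 that stood apart. With edgeR's quasi-likelihood test and Benjamini-Hochberg adjustment over all tested genes, 3 of 84 genes (3.57%) rose in the mean of the genotypes, Rpl7l1, Rpl22l1 and Rpl24, while 33.2% of all tested genes were called and 17.9% were called higher. Within single genotypes 0 of 84 were called, against 8.02% of all genes in Ing4-/-, 1.98% in Socs1-/- and 2.89% in wild-type cells. At an unadjusted p under 0.05 there were 3, 1 and 2 members in the same order, against 28.2%, 16.95% and 22.6% of all tested genes. DESeq2 called 1 member in Ing4-/- cells (Rpl7l1; 16.8% of all genes), 0 in Socs1-/- (6.74%) and 0 in wild-type cells (11.5%), and limma-voom called 0. Over all tested genes, libraries of the same number and genotype deviated together. Over the members alone that correlation was 0.09 in Ing4-/-, 0.64 in Socs1-/- and −0.12 in wild-type cells, and it reached 0.55 between genotypes. Taken across genes, it leaves out a shift that all members share. The core genes' median difference, first minus second library, had 1 sign per genotype. After LPS and untreated it was 0.48 and 0.42 in Ing4-/-, 0.05 and 0.21 in Socs1-/-, and −0.23 and −0.17 in wild-type cells. With the library number as a block within genotype 63 of 84 genes were called in the mean of the genotypes, all higher, among them the 3 above and 61 core genes. In that fit 51.7% of all tested genes were called and 26.6% were called higher. A block over the number alone, across genotypes, gave 4 members (35.9% of all genes). In single genotypes the blocked fit called 3 members in Ing4-/- (27.2% of all genes), 0 in Socs1-/- (6.02%) and 1 in wild-type cells (14.2%).

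The same pairs, under the same scaling as the blocked fit, can be described gene by gene. Genes of the same libraries are not independent, so this adds no separate support. In TMM-scaled CPM, 70 of 84 ribosomal protein genes (83.3%) were higher in the LPS library than in the untreated library of the same number in all 6 pairs, against 24.1% of all tested genes. Without the pairs that hold the second LPS-treated Ing4-/- and the first LPS-treated Socs1-/- library, 71 were higher in the 4 pairs left, against 34.1% of all genes. With upper quartile scaling 28 were higher in all 6 pairs, against 15.7% of all genes, and with library size alone 1 was higher (9.87% of all genes) and 31 were lower (48.2% of all genes) in all 6. The median over the 84 genes lay between 0.14, in the first Socs1-/- pair, and 0.28, in the second Socs1-/- pair. When the groups are set against each other without pairing, both LPS libraries were above both untreated ones for 7 genes in Ing4-/- (background 29.1%), 50 in Socs1-/- (22.5%) and 38 in wild-type cells (30.7%). Ing4-/- cells have few such genes beside the large gap between their own libraries.

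**Figure D2:**
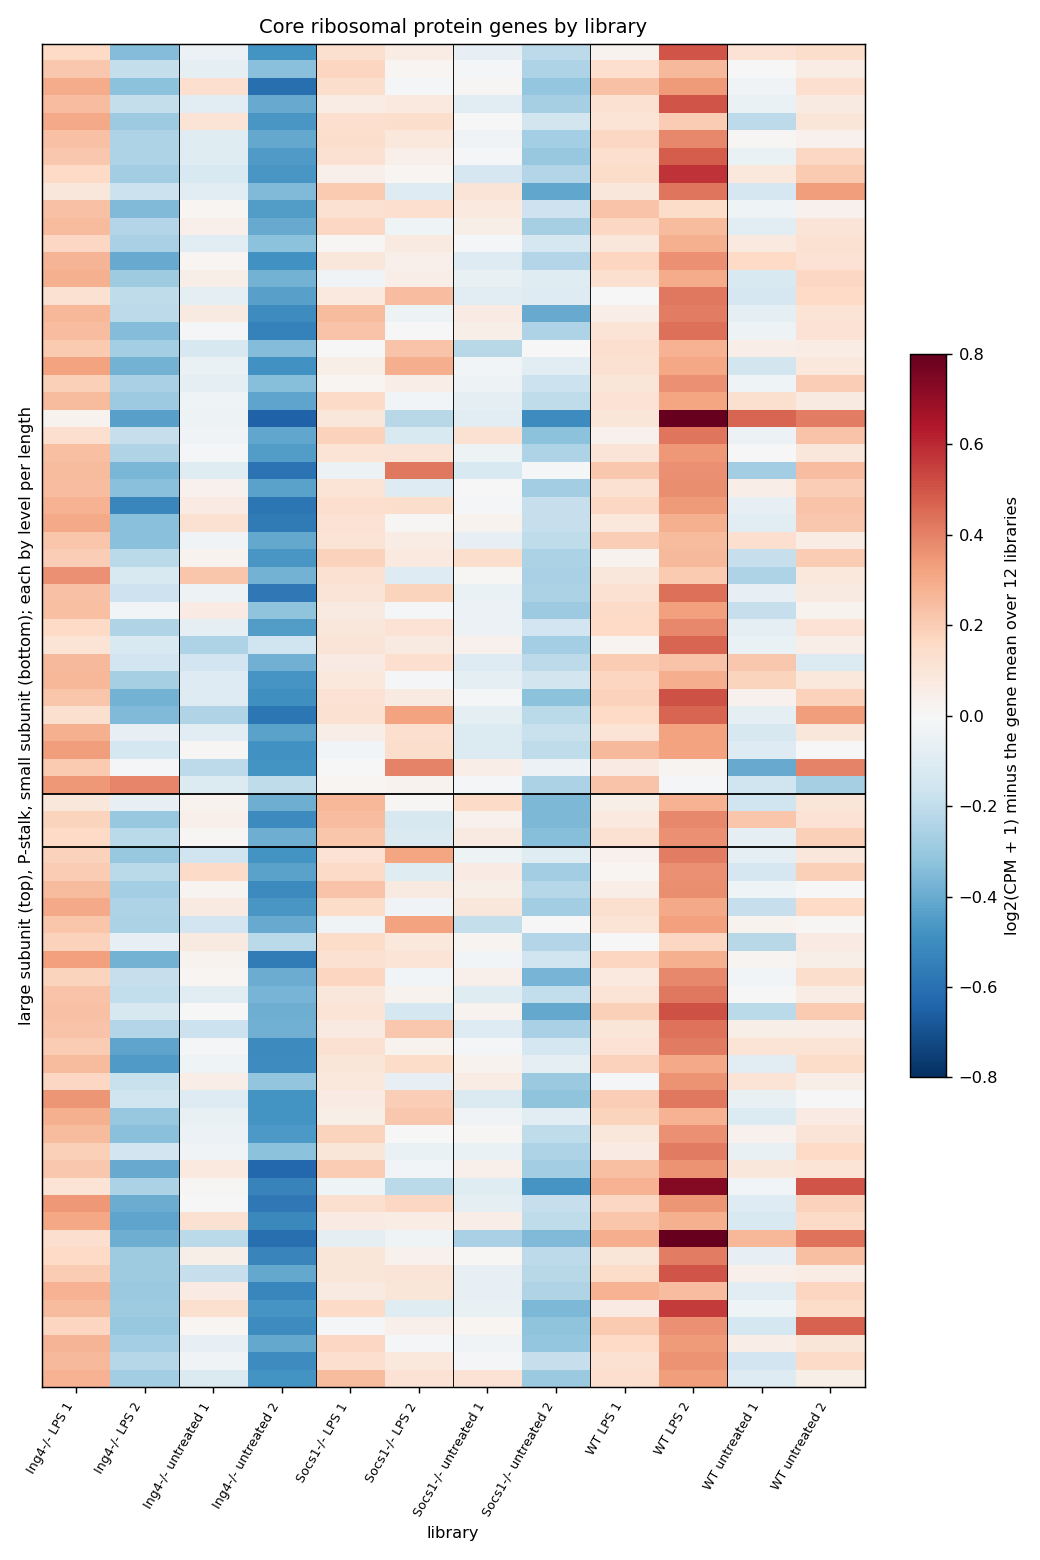
Level of the 77 core genes in each library, as log2(CPM + 1) minus the gene's mean over the 12 libraries (red above, blue below); genes run down by subunit and level per length, libraries across by group. Whole columns differ: the second untreated and second LPS-treated Ing4-/- library are blue over nearly all genes (77 and 76 of 77 below their own mean), and the second LPS-treated wild-type library is red.

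Libraries of 1 group differed from each other by up to more than the LPS difference. Among the 77 core genes, 76 were higher in the first than in the second LPS-treated Ing4-/- library, by a median of 0.48 on the log2 scale, and likewise 76 in the untreated ones, by 0.42. In Socs1-/- cells 47 were higher in the first LPS library, by a median of 0.05, and 74 in the first untreated library, by 0.21. In wild-type cells the second library was the higher one, for 73 genes after LPS (median first minus second −0.23) and for 66 untreated (−0.17). The median over all tested genes was within 0.03 of 0 in each of these contrasts. The second Ing4-/- libraries are those with the high mitochondrial share given above, and the part of that share in the gap was not tested.

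Rpl7l1, a paralog of Rpl7 that is known to act in the assembly of the large subunit, had the clearest LPS response. It had 343 and 286 CPM in LPS-treated against 224 and 202 CPM in untreated Ing4-/- libraries. In Socs1-/- libraries it had 284 and 329 CPM after LPS against 223 and 224 CPM untreated, and in wild-type libraries 392 and 421 CPM after LPS against 281 and 317 CPM untreated. The groups did not overlap within any genotype. It rose by 0.49 on the log2 scale in the mean of the genotypes (SE 0.093, adjusted p = 0.0052), with 0.56 in Ing4-/-, 0.45 in Socs1-/- and 0.44 in wild-type cells. The call was lost with library size alone, where Rpl24 was the 1 member called. It lies on chr17:46773907-46782672 (minus strand, GRCm38), and 4.21% of its transcript windows occur elsewhere.

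Rpl22l1, a paralog of Rpl22 that can take its place in the large subunit, had 109 and 99.9 CPM in LPS-treated against 82.0 and 70.2 CPM in untreated Ing4-/- libraries. It had 108 and 137 CPM in LPS-treated against 111 and 95.7 CPM in untreated Socs1-/- libraries, where the groups overlapped, and 108 and 127 CPM in LPS-treated against 97.6 and 80.7 CPM in untreated wild-type libraries. It rose by 0.37 in the mean of the genotypes (SE 0.104, adjusted p = 0.025), and its log2 difference was 0.46 in Ing4-/-, 0.24 in Socs1-/- and 0.40 in wild-type cells. This call was lost in each of 6 fits without 1 library (the second of untreated Ing4-/-, first of LPS-treated Ing4-/-, either second Socs1-/- library or either second wild-type library) and also with upper quartile scaling, with library size alone, with no filter and without both second Ing4-/- libraries. Its log2 difference was 0.24 with upper quartile scaling, 0.05 with library size alone and 0.30 to 0.35 in those 6 fits.

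Rpl24, which sits at the face between the subunits, rose by 1.40 (SE 0.374, adjusted p = 0.020). In TMM-scaled CPM it was the single member whose 6 LPS libraries were all above the 6 untreated ones (7.70% of all tested genes were). It had 14 and 13 counts in LPS-treated against 5 and 3 in untreated Ing4-/- libraries, 8 and 6 against 7 and 2 in Socs1-/- libraries, and 10 and 6 against 4 and 2 in wild-type libraries. Unscaled, the counts overlapped: the second LPS-treated Socs1-/- and wild-type libraries had 6 each, and the first untreated Socs1-/- library had 7. These are counts of at most 14 reads, which DESeq2 did not call (log2 1.43). The call was also lost in the fits without the second untreated Ing4-/-, the first LPS-treated wild-type or the second untreated wild-type library.

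None of the other paralogs or of the parents of all 6 was called. As a mean of the genotypes the log2 difference was 0.26 for Rpl7 and 0.13 for Rpl22, the parents of the 2 that rose. Rps27l, a p53 target that can stand in for Rps27, had 0.10 and Rps27rt, nearly identical to Rps27 in sequence, had 0.11, against 0.26 for Rps27. Rpl36al had 0.14 beside 0.16 for Rpl36a, and Rpl3l −0.84 (SE 0.676, 256 counts in all) beside 0.19 for Rpl3. With upper quartile scaling the signs for Rpl22, Rps27l and Rps27rt turned to between −0.03 and 0.00, and with library size alone those of Rpl3, Rpl7, Rpl22, Rpl36a, Rpl36al, Rps27, Rps27l and Rps27rt were negative. Per length, Rpl7l1 stood at 26.7% of Rpl7, Rpl22l1 at 26.4% of Rpl22 and Rps27l at 22.1% of Rps27, whereas Rpl36al stood at 1.98% of Rpl36a, Rps27rt at 0.327% of Rps27 and Rpl3l at 0.103% of Rpl3.

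Among the core genes the spread of the LPS difference was narrow. Without Rpl24, the mean-of-genotypes values of the 77 core genes began at 0.12, and the next smallest p after the called genes belonged to Rps13, a small-subunit protein (adjusted p = 0.051). Rps13, named after its value was seen, was called by DESeq2 (which called 30.5% of all genes) and in the fit without both second Ing4-/- libraries, which called 2 members, Rpl7l1 and Rps13 (17.9% of all genes). The 3 lowest members were Rpl3l, Rps15 and Rps21 in Ing4-/-, Rpl3l, Rps27rt and Rps27l in Socs1-/-, and Rpl3l, Rpl26 and Rps19bp1 in wild-type cells. Rpl3l had a log2 difference of −0.23, −0.41 and −1.88 in these 3 genotypes, with 0 to 52 counts per library. Rpl24 and Rpl7l1 led in every genotype, Rpl24 with 1.92 in Ing4-/-, 0.68 in Socs1-/- and 1.61 in wild-type cells, and the third place went to Rpl26, Rpl29 and Rpl22l1. Over the 64 members with a start window, paralogs included, the median was 0.23 in the 14 with a run and 0.20 in the 50 without. Those without a run at the annotated base need not lack the TOP motif, so this does not compare TOP with other mRNAs.

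**Figure D3:**
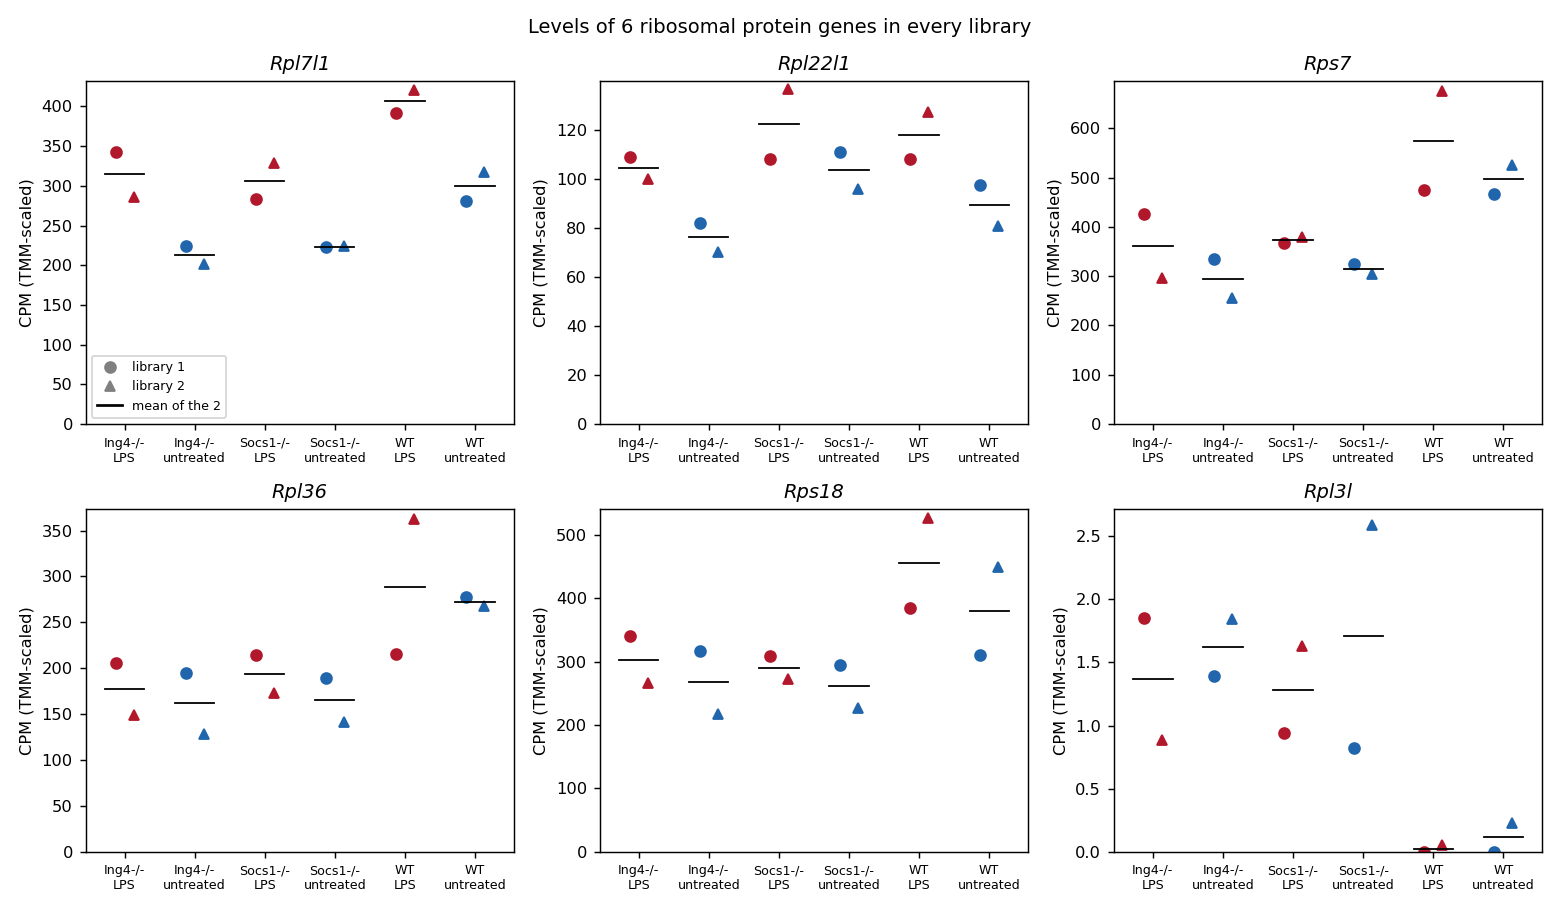
TMM-scaled level (CPM) of 6 ribosomal protein genes in each library; circles and triangles are the first and second library of a group, red LPS and blue untreated, and lines the mean of the 2. Rpl7l1 is higher after LPS in each genotype and lower in both knockout lines than in wild type, Rps7 and Rpl36 are lower in all 8 knockout libraries than in the 4 wild-type libraries, and Rpl3l is near 0 in wild type.

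Among other genes of ribosome production, the assembly factors had the larger LPS differences. The lists were fixed with earlier results of these data known and are described here by counts and medians. Of 50 ribosome biogenesis factors 34 rose and 0 fell in the mean of the genotypes, with a median log2 difference of 0.47, against 3 of 84 and 0.20 for the ribosomal proteins, and against 17.9% of all tested genes called higher. The count was 45 with the block within genotype (26.6% of all genes were called higher) and 11 with library size alone. With library size alone their median was 0.16, where that of all tested genes was −0.31. The count was 22 with upper quartile scaling, which called 35.9% of all genes in either direction. Without both second Ing4-/- libraries the median was 0.49. In single genotypes 9 rose in Ing4-/- (4.73% of all genes did), 1 in Socs1-/- (1.57%) and 0 in wild-type cells (1.89%). Rrs1, an assembly factor of the large subunit, had 160, 211 and 237 CPM (lowest, median and highest) in the 6 LPS libraries and 80.0, 98.0 and 115 CPM in the 6 untreated ones, a rise of 1.07 (SE 0.121, adjusted p = 0.00053). The rRNA-processing factor Rrp9 rose by 0.91, the large-subunit assembly factor Brix1 by 0.63 and the rRNA methylase Dimt1 by 0.69. Of 15 tested genes of RNA polymerase I, which transcribes rRNA, 7 rose and 1 fell (median 0.32), and 1 rose and 2 fell with library size alone (median 0.01) and 4 rose without both second Ing4-/- libraries. The polymerase subunits Polr1d and Polr1b rose by 0.48 and 0.51 and the promoter factor Taf1d by 0.77.

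Other genes known for TOP mRNAs had a median near that of the ribosomal proteins. Of 20 elongation factors and other translation genes with TOP mRNAs, 4 rose and 0 fell (median 0.22), beside 17.9% of all tested genes called higher, and Npm1, a nucleolar chaperone of that list, rose by 0.54 (SE 0.168, adjusted p = 0.037), a call that was lost under 12 of the alternatives tried. With the block within genotype 14 rose and 1 fell, and with upper quartile scaling 0 rose and 1 fell. Fau and Rack1 had log2 differences of 0.29 and 0.25, neither was called, and both were negative with library size alone. Of 77 mitochondrial ribosomal proteins 11 rose and 3 fell, with a median of 0.05. The counts turned with the scaling: 5 rose and 14 fell with upper quartile scaling (median −0.07), 1 rose and 27 fell with library size alone (median −0.26), and 18 rose and 14 fell with the block within genotype. All tested genes shifted too, with medians of −0.12 under upper quartile scaling and −0.31 with library size alone. Medians of the other lists under these settings stand beside the same values. The share of all genes called with library size alone is not given. The largest rise among the called mitochondrial ribosomal protein genes was that of Mrpl52 at 1.43. Of 17 chaperones and surveillance genes of the ribosome 4 rose and 0 fell (median 0.18), against 6 and 2 with the block within genotype, 3 and 2 with upper quartile scaling and 1 and 3 with library size alone (median −0.13). Among them was Gtpbp4, a GTPase of large-subunit assembly, which rose by 1.00. Of 17 genes of mTORC1 and other regulators of TOP mRNAs and Myc targets, 6 rose and 2 fell (median −0.06). With upper quartile scaling 3 rose and 2 fell, and with library size alone 2 rose and 6 fell (median −0.37). Among them the Myc antagonists Mxd1 and Mnt had 1.58 and −1.49, and the translation repressor Eif4ebp2 −0.79. Myc had 67.8, 144 and 169 CPM (lowest, median and highest) in the 6 LPS libraries and 2.19, 3.54 and 15.5 CPM in the 6 untreated ones, a rise of 4.38 (SE 0.498, adjusted p = 0.00073).

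**Figure D4:**
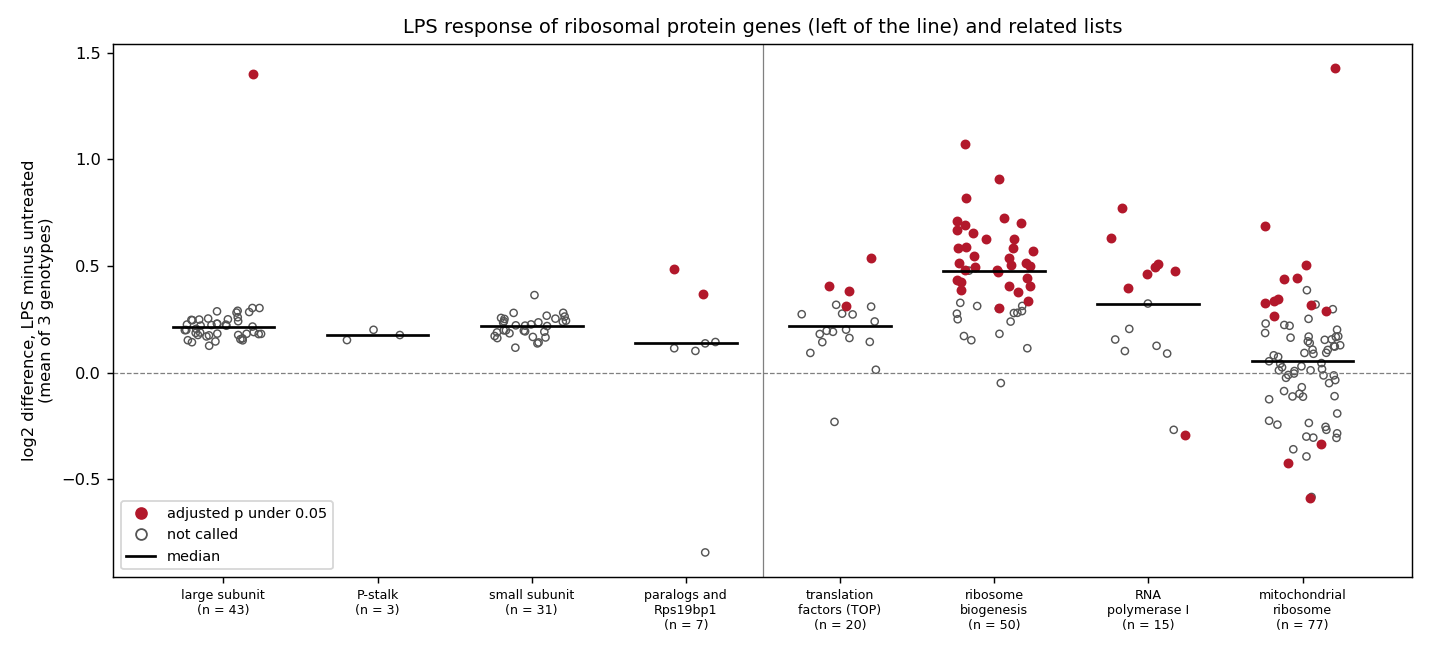
log2 difference between LPS-treated and untreated cells (vertical axis, mean of 3 genotypes) of each ribosomal protein gene by class, left of the line, and of each gene of 4 related lists, right of it; filled red points were called at an adjusted p of 0.05, open points were not, and bars are medians. Apart from Rpl24, the core genes form a tight band near 0.20, while ribosome biogenesis factors centre on 0.47 with 34 of 50 called.

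No difference in LPS response between a knockout and wild type passed the test for any ribosomal protein gene. For Ing4-/- minus wild type the median was 0.02, with values between −0.12 (Rps10) and 1.65 (Rpl3l), and for Socs1-/- minus wild type it was 0.01, with values between −0.93 (Rpl24) and 1.47 (Rpl3l). With edgeR 0 of 84 were called in either, as were 0% of all tested genes, and 0 members had an unadjusted p under 0.05, which 0.415% of all genes had for Ing4-/- and 0.799% for Socs1-/- cells. DESeq2 and limma-voom called 0 members too. Beside Rpl3l, the highest were Rpl26 (0.47) and Rpl24 in Ing4-/- and Rpl26 and Rpl29 in Socs1-/-, and the lowest Rps14 and Rpl15 in Ing4-/- and Rps14 and Rpl22l1 in Socs1-/-.

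By group means the ribosomal protein genes were lower in both knockout lines than in wild type, by a small amount. No single gene passed edgeR's test. The 4 comparisons use 2 wild-type libraries for each treatment, so those of the 2 knockouts share their wild-type samples. In Ing4-/- cells the median was −0.24 after LPS, with 81 of 84 genes negative, and −0.27 untreated, with 80 negative. In Socs1-/- cells it was −0.16 after LPS and −0.17 untreated, with 79 negative in each. All tested genes had medians between 0.01 and 0.02. By edgeR 0 of 84 genes were called in any of the 4, against 0.102% and 0.141% of all genes in Ing4-/- and 0.0626% and 0.047% in Socs1-/- cells (after LPS and untreated). Unadjusted p was under 0.05 for 4 and 5 members in Ing4-/- cells (7.09% and 5.25% of all genes) and for 4 and 4 in Socs1-/- cells (10.6% and 5.15%), and limma-voom called 0. DESeq2 called 0 members in Ing4-/- cells after LPS (0.928% of all genes) and untreated (0.757%), and 1, Rpl3l, in Socs1-/- cells after LPS (1.8%) and untreated (0.627%).

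For Ing4-/- cells that difference was close to 0 without the second libraries. In the fit without both of them the median of the members was 0.00 after LPS, with 43 of 84 negative, and −0.08 untreated, with 63 negative. For Socs1-/- cells after LPS, leaving out the first library, which stood apart, gave −0.19 with 71 negative. Leaving out single libraries moved the Socs1-/- median to between −0.26 and −0.05 after LPS and between −0.28 and −0.06 untreated. Summed over the members, first libraries had 44570 (Ing4-/-), 41462 (Socs1-/-) and 41751 CPM (wild type) after LPS, and 37575, 37665 and 37377 CPM untreated. Second libraries had, in the same order, 31747, 39539 and 49146 CPM after LPS and 27923, 32403 and 41439 CPM untreated. By number, the gap in these sums lay mainly between second libraries. The labels do not say what a number marks, so libraries of different genotypes are not known to be matched by it. Both knockout libraries were below both wild-type ones for 10 members after LPS (background 18.2%) and 36 untreated (20.1%) in Ing4-/- cells, and for 35 after LPS (18%) and 35 untreated (20.4%) in Socs1-/- cells. Just 2 members, Rps7 and Rpl36, were lower in all 8 knockout libraries than in all 4 wild-type libraries (2.04% of all genes were), and 1, Rpl3l, was higher (0.971%).

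Rpl36, Rps7 and Rps18, which were among the 4 lowest members in each of the 4 comparisons, lie in 2 stretches of the genome in which the median of other genes was lower as well. The stretches, chromosome 17 from 30 Mb on and chromosome 12 before 60 Mb, were bounded in steps of 10 Mb after the values were seen. Chromosomes 17 and 12 had the lowest and second lowest medians of all in each of the 4 comparisons. The 565 tested genes in them that are no ribosomal proteins had medians of −0.32 after LPS and −0.34 untreated in Ing4-/- cells, with 84.4% and 84.2% of them negative, and of −0.33 after LPS and −0.38 untreated in Socs1-/- cells, with 76.8% and 87.1% negative. The 12122 others had medians of 0.03 after LPS and 0.02 untreated in both knockouts. The change was abrupt: on chromosome 17 the 240 genes before 30 Mb had medians of 0.02 to 0.12, and on chromosome 12 the 305 genes from 60 Mb on had medians of 0.03 to 0.04. The comparisons share wild-type libraries within a treatment, and the cause was not tested.

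Of the 84 ribosomal protein genes, 5 lie in these stretches: Rps28, Rps18, Rpl7l1 and Rpl36 on chromosome 17 and Rps7 on chromosome 12. Their median was −0.59 after LPS and −0.50 untreated in Ing4-/- cells, against −0.23 and −0.26 for the 79 elsewhere. In Socs1-/- cells it was −0.58 after LPS and −0.54 untreated, against −0.15 and −0.17. The 5 include Rpl36, Rps7 and Rps18, named above for being among the lowest, and the stretches were bounded with the values seen. A lower median of the 5 follows from that choice. Rps2, Rps10, Rpl10a and Rpl3l, on chromosome 17 before 30 Mb, and Rps29 and Rpl36al, on chromosome 12 from 60 Mb on, are among the 79. For Rps29 and Rpl36al the median was between −0.09 and 0.01 in the 4 comparisons.

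Rps7 (chr12:28630854-28635953, minus strand), a small-subunit protein that also binds Mdm2, had 426 and 296 CPM in LPS-treated Ing4-/- and 368 and 379 CPM in LPS-treated Socs1-/- libraries, against 475 and 675 CPM in LPS-treated wild-type libraries. Untreated it had 334 and 255 CPM in Ing4-/- and 324 and 304 CPM in Socs1-/- libraries, against 468 and 525 CPM in wild-type libraries. No knockout library reached a wild-type one. Its log2 difference was −0.67 after LPS and −0.75 untreated in Ing4-/- cells and −0.62 and −0.66 in Socs1-/- cells, with SEs of 0.241, and without the second Ing4-/- libraries −0.43 and −0.57.

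Rpl36 (chr17:56613416-56614243, plus strand), a large-subunit protein, had 205 and 149 CPM in LPS-treated Ing4-/- and 214 and 173 CPM in LPS-treated Socs1-/- libraries, against 215 and 362 CPM in LPS-treated wild-type libraries. Untreated it had 195 and 128 CPM in Ing4-/- and 190 and 141 CPM in Socs1-/- libraries, against 278 and 267 CPM in wild-type libraries. The closest knockout and wild-type libraries differed by about 1 CPM. The log2 difference was −0.70 after LPS and −0.75 untreated in Ing4-/- cells and −0.58 and −0.72 in Socs1-/- cells, and −0.49 and −0.48 in Ing4-/- cells without the second libraries.

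Rps18 (chr17:33951999-33956001, minus strand), a protein of the small subunit's head, had 341 and 266 CPM in LPS-treated Ing4-/- and 309 and 273 CPM in LPS-treated Socs1-/- libraries, against 384 and 526 CPM in LPS-treated wild-type libraries. Untreated it had 318 and 218 CPM in Ing4-/- and 296 and 227 CPM in Socs1-/- libraries, against 311 and 449 CPM in wild-type libraries, and here the first Ing4-/- library lay between the wild-type ones. The log2 difference was −0.59 after LPS and −0.50 untreated in Ing4-/- cells and −0.65 and −0.54 in Socs1-/- cells. Rps28, also of the small subunit, had −0.34 and −0.43 in Ing4-/- and −0.28 and −0.35 in Socs1-/- cells. Rpl7l1, which rose with LPS, had −0.37 after LPS and −0.49 untreated in Ing4-/- cells and −0.41 and −0.42 in Socs1-/- cells, with both knockout libraries below both wild-type libraries in each of the 4 comparisons. Of the members outside the stretches, Rpl29 was the lowest in untreated Ing4-/- cells at −0.56, and −0.40 without the second libraries.

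**Figure D5:**
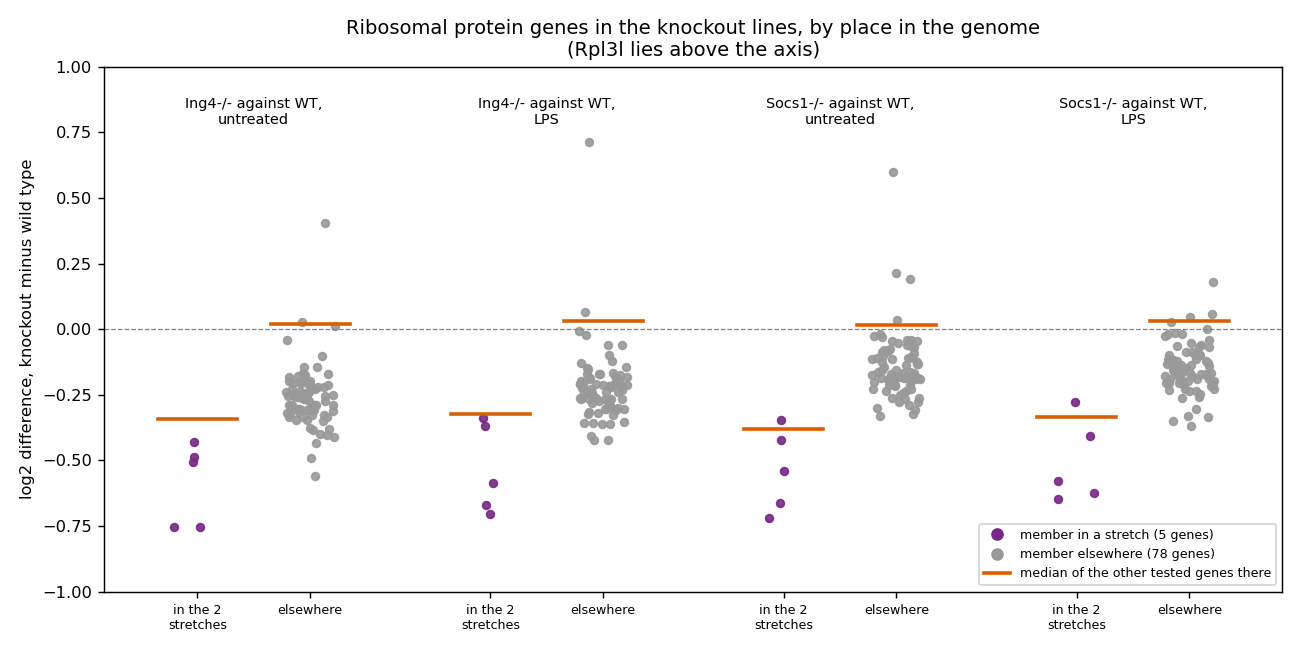
log2 difference between knockout and wild-type cells (vertical axis) of the ribosomal protein genes in the 2 stretches of chromosomes 12 and 17 (purple, 5 genes) and elsewhere (grey, 78 genes without Rpl3l, which lies above the axis), for each knockout untreated and after LPS. Orange bars give the median of the tested genes in the same place that are no ribosomal proteins: between −0.38 and −0.32 in the stretches and 0.02 or 0.03 elsewhere. The stretches were bounded after the values were seen.

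Rpl3l was the 1 member that stood higher in both knockouts. It is known as the form of Rpl3 made in heart and skeletal muscle. It had 39 and 16 counts in LPS-treated and 32 and 40 in untreated Ing4-/- libraries, and 23 and 29 in LPS-treated and 19 and 52 in untreated Socs1-/- libraries. Wild-type libraries had 0 and 1 counts after LPS and 0 and 5 untreated. No knockout library overlapped a wild-type one, and none of its transcript windows occur in another gene. As a ratio of summed counts per total, with an exact 95% binomial interval that covers counting error only, it was 14.6 times as high in untreated Ing4-/- as in untreated wild-type cells (5.99 to 46.5) and 15.5 times as high in untreated Socs1-/- cells (6.35 to 49.3). After LPS, against 1 wild-type count, the ratios were 54.3 (9.35 to 2184) and 51.3 (8.81 to 2065).

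The tests did not treat Rpl3l alike. In edgeR's fit its log2 difference was 5.43 after LPS and 3.78 untreated in Ing4-/- cells and 5.33 and 3.85 in Socs1-/- cells, with adjusted p = 0.29, 0.43, 0.22 and 0.52. Those fitted values depend on the prior count. Without the filter on low counts edgeR called it in all 4 comparisons. That fit called 2.25% and 2.15% of all genes in Ing4-/- and 3.84% and 1.79% in Socs1-/- cells (after LPS and untreated). The authors' deposited table for LPS-treated Ing4-/- against wild-type cells lists it with a log2 fold of 2.02 and an adjusted p of 0.042, and their deposited table for Socs1-/- lists it with 1.95 and 0.036. It is the only ribosomal protein gene in the 5 tables of changed genes the authors deposited, and its level in the knockouts was still 0.824 to 2.59 CPM. It lies on chr17:24727820-24736143 (plus strand), before the stretch described above. Rpl24, Rpl26 and Rpl22l1 were also among the 3 highest members of a knockout comparison, and none of them was called.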

How the data were processed

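RNA was measured by stranded, poly(A)-selected RNA-seq with 75-base single-end reads, per the labels' protocols. The authors deposited raw counts per gene for each library, and tables of changed genes with log2 fold changes and adjusted p-values. The submitters' processing notes name FastQC, HISAT, StringTie, HTSeq and DESeq2 and the build GRCh38, although the gene identifiers are those of mouse. A treatment label also names HEK293T cells, against the RAW264.7 of the sample labels. Of the authors' tables, 60 columns of normalised values per sample were not used.

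The members and lists were chosen with earlier results of these data known. Symbols, biotypes, coordinates and lengths came from GENCODE M21 (GRCm38), and start windows from RefSeq (GRCm38.p6). Counts of 17250815 to 24377950 per library were filtered (filterByExpr), scaled by TMM and fitted over all 12 libraries with edgeR 4.0.16 in R 4.3.3, by the quasi-likelihood F-test (two-sided). Adjustment by Benjamini-Hochberg ran over all 12771 tested genes, and an adjusted p under 0.05 was called. Genes were named by rule: up to 6 called members a direction, the 3 highest and 3 lowest members of each comparison, the 5 highest and 5 lowest by level per length, the paralogs with their parents, up to 4 called genes of each list by smallest p, and Myc. Fau, Rack1, Rps13 and the genes of the 2 stretches were added after their values were seen. Results for some genes are not reported here. The fit was tested on simulated data. The scaling, the tool (DESeq2 1.42.0, limma 3.58.1), the filter, the samples, a replicate block and each left-out library were varied.

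The labels do not say what a replicate number marks. Over all tested genes, deviations of same-numbered libraries from their group means had correlations of 0.447 in wild-type, 0.601 in Ing4-/- and 0.565 in Socs1-/- cells, and of −0.129 to 0.156 across genotypes, so the block was taken within genotype. Over the members alone the same-genotype correlations were −0.12, 0.09 and 0.64, which leave out a shift that all members share.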

Additional observations from a re-analysis of the deposited data

How the results depend on the processing

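The number of ribosomal protein genes called after LPS in the mean of the genotypes, 3, was 63 with a replicate block within genotype, 4 with a plain replicate block, 1 at an adjusted p of 0.01, 1 with library size alone and 1 to 8 when single libraries were left out (1 without the second untreated wild-type or second untreated Ing4-/- library, 8 without the second LPS-treated Ing4-/- library). In single genotypes, where 0 were called, the block within genotype gave 3 in Ing4-/- and 1 in wild-type cells, DESeq2 gave 1 in Ing4-/- cells, and leaving out single libraries gave 0 to 1 in Ing4-/- cells. In the knockout comparisons DESeq2 gave 1 in each of the Socs1-/- comparisons, and the absence of a filter gave 1 in each of the 4. The plain replicate block changed no other member's call. The counts from fits without single libraries, which leave 1 library in a group, are given without the share of all tested genes called. They therefore do not show whether a change was particular to the ribosomal proteins. The counts of 0 with limma-voom also lack that share. Without single libraries the median LPS difference in the mean of the genotypes ran from 0.12 to 0.29. With library size alone, chosen after seeing the data, the median LPS difference was −0.11 in Ing4-/-, −0.067 in Socs1-/- and −0.12 in wild-type cells and −0.11 in their mean. Without both second Ing4-/- libraries, also chosen after seeing the data, the median of LPS-treated Ing4-/- against wild-type cells was −0.0015. When single libraries were left out, that median ran from −0.51 to −0.00079, the LPS median in Ing4-/- cells from −0.047 to 0.46, and the median difference in LPS response of Ing4-/- cells from −0.24 to 0.25.

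For single genes, signs turned with upper quartile scaling for Rps27l (−0.025), Rps27rt (−0.015) and Rpl22 (−0.00101). With library size alone the LPS difference was −0.21 for Rps27l, −0.20 for Rps27rt, −0.17 for Rpl36al, −0.12 for Rpl3, −0.050 for Rpl7, −0.19 for Rpl22, −0.15 for Rpl36a, −0.051 for Rps27, −0.018 for Fau and −0.065 for Rack1, and −0.047 for Rpl22l1 in Socs1-/- cells. Without both second Ing4-/- libraries that of Rpl3l in Ing4-/- cells was 0.41. When single libraries were left out, Rpl3l ran from −1.66 to 0.57 in the mean of the genotypes, from −0.87 to 0.20 in Ing4-/-, from −1.02 to 0.63 in Socs1-/- and from −4.32 to 2.41 in wild-type cells, and its difference in LPS response from −2.67 to 4.09 for Ing4-/- and from −2.85 to 3.91 for Socs1-/- cells. The other genes whose sign turned were Rps27rt (−0.16 to 0.80) after LPS, Rps28 in untreated Socs1-/- cells (−0.62 to 0.000405), and, for the difference in LPS response, Rpl26 (−0.014 to 0.82), Rps10 (−0.42 to 0.21) and Rpl24 (−1.49 to 0.065). The cause was not tested in these cases. Rpl3l had at most 52 counts and Rpl24 at most 14 counts in a library, and each group had 2 libraries.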
